A study of Mus musculus with 6 samples.

Results

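The interleukin-6 and LIF family was examined in mouse ectopic lesions as 10 genes: the cytokines Il6, Lif, Il11 and Osm, the receptor chains Il6ra, Lifr, Il11ra1 and Osmr, the shared signalling chain Il6st and the transcription factor Stat3. They were found by gene symbol among the 56884 genes of the count table. All 10 passed the filter on low counts, which kept 18177 genes. The 3 control (WT) lesions came from uteri of Dnmt3a f/f donors, and the 3 Dnmt3a KO lesions from Dnmt3a f/f:PR-Cre/+ donors, in which Cre is expressed in cells with progesterone receptor. Both groups thus carry the floxed alleles, only the KO donors carry Cre, and the syngeneic C57BL/6J recipients were not knocked out, so cells that entered a lesion from the host keep Dnmt3a. Donors and recipients were 8-week-old females, the donors were primed with estradiol, and the recipients carried an estradiol pellet. Collection was on day 21 by the methods and at 4 weeks by the sample labels. One library of whole-lesion messenger RNA was made per lesion, and the totals ran from 45370342 to 57239184 counts.

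Interleukin-6 type cytokines signal through gp130, the product of Il6st. A further receptor chain (IL-6 receptor, LIF receptor, IL-11 receptor or oncostatin M receptor) takes part in binding the ligand. Receptor complexes with gp130 activate JAK kinases, and these phosphorylate STAT3, which switches on its own inhibitor Socs3 among other genes. LIF is produced by uterine glands under estrogen and is needed for embryo implantation in the mouse, IL-6 and oncostatin M are made largely by leukocytes and stromal cells during inflammation, and IL-11 takes part in decidualization.

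Levels are given as CPM, the counts of a gene relative to the size of its library, scaled by the trimmed mean of M-values (TMM), and fold changes as log2 of KO over WT with their standard error (SE) from edgeR's quasi-likelihood test. The threshold that the study used for the whole profile asked for an unadjusted p-value under 0.05 together with a log2 fold change above 1 or below -1. In the order of replicates 1 to 3, which holds for all triplets of values below, Dnmt3a was at 52.7, 43.9 and 51.7 CPM among WT lesions, against 30.3, 33.5 and 36.2 CPM among KO lesions, a measure of the whole gene that does not isolate the floxed part. The 10 endometrial epithelium markers summed to 2285 to 4162 CPM and the 9 endometrial stroma markers to 2242 to 6863 CPM, with Foxa2 in KO replicate 3 the one marker of these lists at 0. WT replicate 2 stood apart. Its 10 macrophage markers summed to 4241 CPM, against 685 to 2065 CPM in the other lesions. Its 11 neutrophil markers other than Ltf summed to 10171 CPM, against 44.5 to 506 CPM elsewhere, and all 11 had their highest value there. Ltf, which uterine epithelium also makes under estrogen, was left out of that sum after its values of 9882 to 33570 CPM were seen. T cell markers summed to 34.7, 98.1 and 38.0 CPM among WT lesions, against 12.1, 7.63 and 26.6 CPM among KO lesions, without overlap. B cell markers summed to 15.1, 80.0 and 9.59 CPM, against 9.81, 7.39 and 8.88 CPM, with overlap. Both sums were highest in WT replicate 2. By edgeR's unadjusted p-value under 0.05, 6 of 8 T cell and 4 of 6 B cell markers were lower in KO lesions. That held for 8.16% of all genes. The part of these markers in the levels of the family was not tested. WT replicates 1 and 3 in turn held 29644 and 31680 CPM of 10 skeletal muscle markers, against 5.54 to 16.2 CPM in the other 4 lesions. These are the WT lesions that remain wherever WT replicate 2 is left out below. In bulk tissue, fewer cells of a type and less RNA per cell cannot be told apart.

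Across the family, Lif and Il6ra were lower and Il6st higher in KO lesions at an unadjusted p-value under 0.05, Il6 and Osm were dominated by WT replicate 2, and Stat3, Osmr, Lifr and Il11ra1 lay within the spread between lesions. Lif alone was past the threshold of the study, so 1 of 10 members was past it on the lower side, where 5.85% of all genes tested were, and 0 of 10 on the higher side, where 3.1% were. At an unadjusted p-value under 0.05 alone, 2 members were lower and 1 higher, beside 8.16% and 6.55% of all genes. After Benjamini-Hochberg adjustment no member had an adjusted p-value under 0.05 in edgeR's test (0.321 to 0.961), as was the case for all but 1 of the genes tested (0.0055%). With DESeq2, Lif was the one member with an adjusted p-value under 0.05 (0.0368), beside 709 lower and 391 higher genes among the 18177. The groups were apart, without overlap, with WT on top for Lif and Il6ra and with KO on top for Il6st and Il11, beside 8.74% and 10.7% of all genes. The median log2 fold change of the 10 members was -0.17, and 0.02 without WT replicate 2, where the medians of all genes were 0.01 and 0.04. Below 0 were 7 of the 10 fold changes (48.6% of all genes), and 6 of the 10 members had their highest value in WT replicate 2 (24.2% of all genes).

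**Figure D1:**
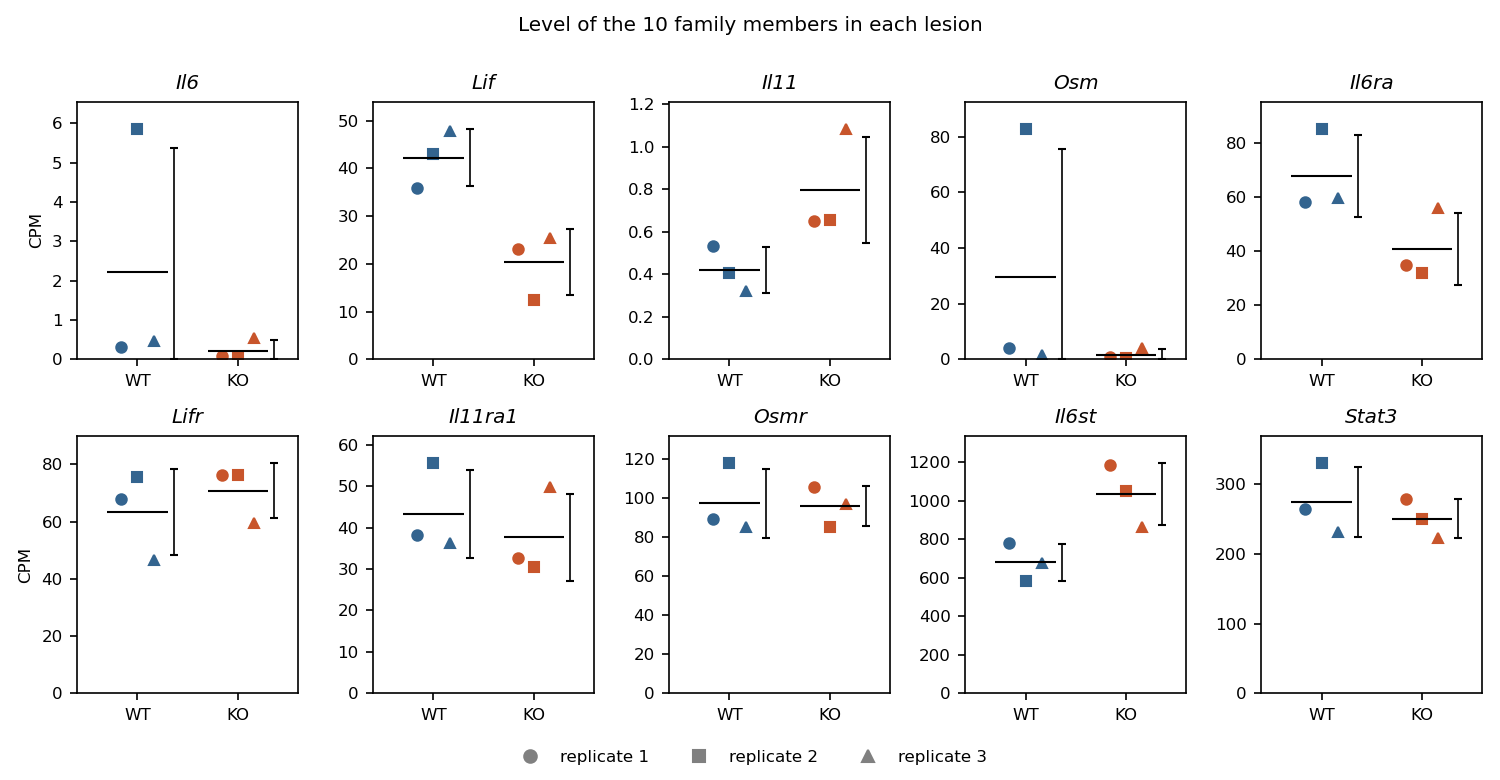
Level of each family member in CPM (linear axes from 0) in the WT and KO lesions. Symbols mark the replicate number, horizontal lines the mean of 3 lesions, and bars the SD, drawn down to 0 where it is larger than the mean. Lif and Il6ra are lower and Il6st and Il11 higher in every KO lesion, while the WT means of Il6 and Osm are set by replicate 2, at 5.85 and 82.7 CPM.

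The promoter of Il6 is shown for its motifs, and those of Lif, Il6ra and Il6st, the members with an unadjusted p-value under 0.05, for their CpG dinucleotides, the sites that DNMT3A methylates. The windows run from 250 bases before to 50 bases after the RefSeq start site (build GRCm38.p6), and such windows were found for 9 of the 10 members. DNA methylation was not measured here. In the first sequence (chr5:30012864-30013163, plus strand) capitals mark motif matches, and in the others (Lif at chr11:4257318-4257617, plus strand; Il6ra at chr3:89913147-89913446, minus strand; Il6st at chr13:112463820-112464119, plus strand) capitals mark CpG dinucleotides.
Il6: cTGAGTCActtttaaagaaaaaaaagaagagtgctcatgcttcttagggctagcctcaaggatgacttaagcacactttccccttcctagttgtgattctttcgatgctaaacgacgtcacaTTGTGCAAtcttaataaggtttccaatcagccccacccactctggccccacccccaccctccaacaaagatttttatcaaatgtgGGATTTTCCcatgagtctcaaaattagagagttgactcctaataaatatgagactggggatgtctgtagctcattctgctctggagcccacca
Lif: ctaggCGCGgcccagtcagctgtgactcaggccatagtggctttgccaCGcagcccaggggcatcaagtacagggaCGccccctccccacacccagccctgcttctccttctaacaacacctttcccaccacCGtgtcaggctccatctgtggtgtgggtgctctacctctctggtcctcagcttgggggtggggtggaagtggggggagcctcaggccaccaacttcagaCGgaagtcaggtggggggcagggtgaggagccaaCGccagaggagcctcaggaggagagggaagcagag
Il6ra: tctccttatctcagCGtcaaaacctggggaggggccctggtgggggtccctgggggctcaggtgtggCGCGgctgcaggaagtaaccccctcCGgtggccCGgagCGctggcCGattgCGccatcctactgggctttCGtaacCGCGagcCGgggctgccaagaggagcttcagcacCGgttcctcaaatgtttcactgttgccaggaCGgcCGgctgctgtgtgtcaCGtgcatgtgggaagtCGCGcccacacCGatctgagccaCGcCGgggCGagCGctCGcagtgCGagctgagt
Il6st: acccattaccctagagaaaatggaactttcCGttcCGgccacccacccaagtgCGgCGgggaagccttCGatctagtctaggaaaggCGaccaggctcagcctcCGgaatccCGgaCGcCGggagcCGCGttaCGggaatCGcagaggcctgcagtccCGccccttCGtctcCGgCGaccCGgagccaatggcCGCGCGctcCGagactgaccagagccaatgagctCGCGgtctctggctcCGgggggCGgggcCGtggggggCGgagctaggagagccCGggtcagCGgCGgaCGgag

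These windows hold 3 CpGs for Il6, 7 for Lif, 25 for Il6ra and 33 for Il6st, and the median of the 32851 promoter windows is 7. Of all windows, 91.4% hold fewer CpGs than that of Il6st and 23.3% fewer than that of Il6. Lif and Il6ra, with fold changes below 0, thus differ in CpG content, and the windows of Il6ra and Il6st, with fold changes of opposite sign, both hold more CpGs than the median. The Il6 window matched an NF-kB type core (GGANTTTCC) at position -43 from the start site, a C/EBP core (TTNNGCAA) at -128 and an AP-1 core (TGANTCA) at -249, on either strand, cores that 1.25%, 10.8% and 7.81% of all windows hold. An AP-1 core was also found in windows of Lif at -228, Il11 at -98 and Osmr at 4. The STAT core TTCNNNGAA, held by 8.3% of all windows, was in no member window. A match of letters is a description and not a bound site.

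Lif (ENSMUSG00000034394.15) encodes leukemia inhibitory factor. Its level was 35.9, 43.0 and 47.8 CPM among WT lesions, against 23.1, 12.5 and 25.5 CPM among KO lesions. Every KO lesion was below the lowest WT lesion. The means were 42.2 ± 5.97 CPM (SD, n = 3) for WT, against 20.3 ± 6.93 CPM (SD, n = 3) for KO lesions, 2.08-fold higher in WT (log2 fold change -1.05, SE 0.29, unadjusted p = 0.0115, adjusted p = 0.321 from edgeR). The exact two-sided permutation test gave p = 0.1, the smallest that 3 lesions against 3 allow. Without WT replicate 2 the log2 fold change of Lif was -1.04 (unadjusted p = 0.0271 from edgeR). It was below 0 with an unadjusted p-value under 0.05 in each of 13 alternative analyses, with values from -1.25 to -0.80, and past the threshold of the study in 10 of them.

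Osm (ENSMUSG00000058755.4) encodes oncostatin M and lies next to Lif on chromosome 11, 16.5 kb away in the GRCm38 annotation with no coding gene between them. It was measured at 4.10, 82.7 and 1.56 CPM among WT lesions, against 0.807, 0.358 and 3.88 CPM among KO lesions. WT replicate 2 alone held 87.7% of its 4190 counts, and the groups overlapped, since KO replicate 3 was above WT replicate 3. The log2 fold change of -4.13 (SE 1.77, unadjusted p = 0.0580, adjusted p = 0.346 from edgeR) was -0.75 without WT replicate 2 (unadjusted p = 0.512). The ratio of the neighbours also varied between lesions, since the per-length ratio of Lif to Osm was 0.272 in WT replicate 2 and from 3.43 to 18.2 in the other lesions.

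Il6 (ENSMUSG00000025746.12), the founding cytokine of the family, was scarce. Its counts were 14, 260 and 22 in WT and 4, 2 and 26 in KO lesions, which is 0.299, 5.85 and 0.470 CPM among WT lesions, against 0.0702, 0.0397 and 0.542 CPM among KO lesions. WT replicate 2 held 79.3% of all Il6 counts, and KO replicate 3 lay above WT replicates 1 and 3. The log2 fold change was -3.34 (SE 1.54, unadjusted p = 0.0725, adjusted p = 0.362 from edgeR), and -0.83 without WT replicate 2 (unadjusted p = 0.496). DESeq2 gave neither Il6 nor Osm a p-value. Over the 6 lesions the genes most like Il6 in log2 CPM, among 12040 genes with a mean of at least 5 CPM, were Picalm, Aoah and Cfp (Pearson r = 0.999, 0.998 and 0.998), and those most like Osm were Idua, Irf5 and Ifi30 (0.999, 0.998 and 0.997). These correlations describe 6 lesions that differ in myeloid marker content. Cfp encodes the complement factor properdin and Irf5 an interferon regulatory factor of myeloid cells. The neutrophil and macrophage sums given above were highest in the same lesion as Il6 and Osm, and their part in these levels was not tested.

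Il11 (ENSMUSG00000004371.16), with a fold change above 0, was measured at very low depth, with 25, 18 and 15 counts in WT and 37, 33 and 52 counts in KO lesions. In CPM this was 0.534, 0.405 and 0.320 in WT and 0.649, 0.656 and 1.08 in KO lesions, so each KO lesion was above each WT lesion. Its log2 fold change was 0.92 (SE 0.38, unadjusted p = 0.0536, adjusted p = 0.342 from edgeR). It was past the threshold of the study with upper quartile scaling only, at 1.01 (unadjusted p = 0.0390), out of 13 alternatives.

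**Figure D2:**
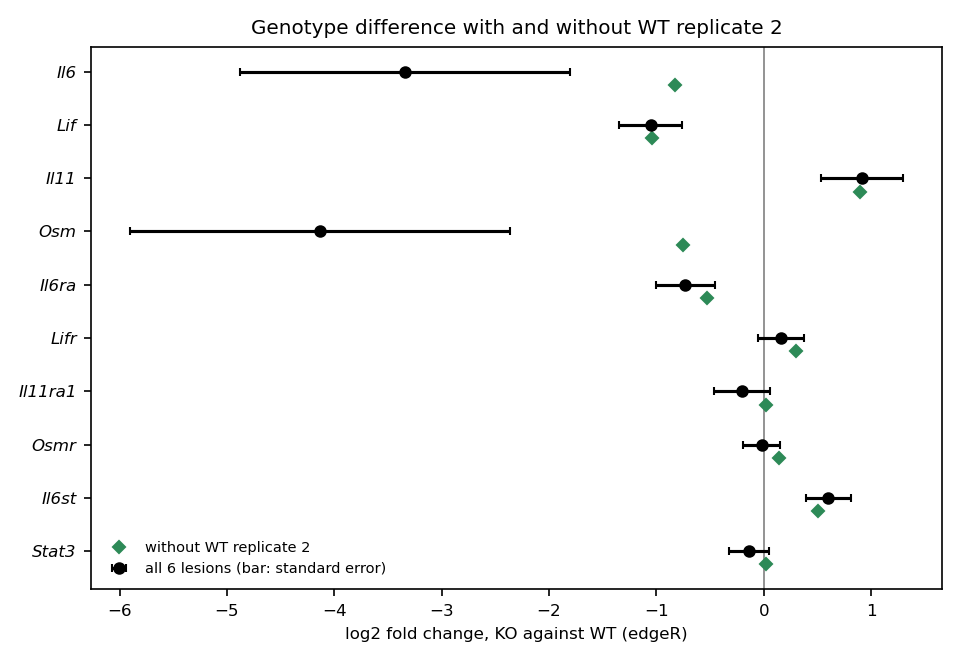
Log2 fold change of KO against WT for each member from edgeR, with all 6 lesions (black points, bars are 1 SE) and without WT replicate 2 (green diamonds). Osm goes from -4.13 to -0.75 and Il6 from -3.34 to -0.83, whereas Lif is at -1.05 and -1.04 and Il6st goes from 0.60 to 0.51.

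Among the receptor chains, Il6st (ENSMUSG00000021756.13), which encodes gp130, was the most abundant per length and was higher in KO lesions at an unadjusted p-value under 0.05. It was measured at 779, 584 and 678 CPM among WT lesions, against 1184, 1053 and 865 CPM among KO lesions, and the groups did not overlap. The means were 680 ± 97.1 CPM (SD, n = 3) for WT, against 1034 ± 160 CPM (SD, n = 3) for KO lesions, 1.52-fold higher in KO (log2 fold change 0.60, SE 0.21, unadjusted p = 0.0269, adjusted p = 0.328 from edgeR; exact two-sided permutation p = 0.1). The 13 alternatives gave log2 fold changes from 0.49 to 0.72, with an unadjusted p-value under 0.05 in 8 of them. Without WT replicate 2 it was 0.51 (unadjusted p = 0.0517), and the p-value was also above 0.05 without WT replicate 3, KO replicate 1 or KO replicate 2 (0.0715 to 0.0909). Endometrial epithelium markers summed to 2416, 2504 and 3570 CPM among WT lesions, against 4162, 3809 and 2285 CPM among KO lesions, so KO replicate 3 was lowest in both Il6st and epithelial markers among the KO lesions. The epithelial sum of KO replicate 3 was also the lowest of any lesion, while its Il6st level was above that of each WT lesion. Of the 10 epithelial markers, 1 (Esr1, named after its values were seen) was higher at an unadjusted p-value under 0.05 (6.55% of all genes). Smooth muscle markers summed to 4261, 847 and 2594 CPM in the WT lesions and to 3130, 1816 and 2541 CPM in the KO lesions, a sum to which Des, a gene that skeletal muscle also expresses, gave up to 2675 CPM. Of the 7, 5 (Myh11, Cnn1, Actg2, Smtn and Lmod1, named after their values were seen) had an unadjusted p-value under 0.05. In all of these, each KO lesion was above each WT lesion. Over all genes, that p-value was reached on the higher side by 6.55%, and 10.7% had every KO lesion on top. Acta2 overlapped between the groups (log2 fold change 0.73, unadjusted p = 0.125 from edgeR). Des also overlapped and went the other way, with a log2 fold change of -2.16. The sum of the list overlapped as well. The part of either marker list in the Il6st difference was not tested.

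Il6ra (ENSMUSG00000027947.12) encodes the chain that binds IL-6 before gp130 joins. It was measured at 58.2, 85.2 and 59.7 CPM among WT lesions, against 34.8, 31.7 and 56.0 CPM among KO lesions. The groups did not overlap, and the gap between KO replicate 3 and WT replicate 1 was the narrowest. The log2 fold change was -0.73 (SE 0.28, unadjusted p = 0.0385, adjusted p = 0.332 from edgeR), and it was -0.53 without WT replicate 2 (unadjusted p = 0.109). The p-value was also above 0.05 without WT replicate 3, KO replicate 1 or KO replicate 2 (0.0568 to 0.127). Over 13 alternatives it stayed between -1.02 and -0.53, with an unadjusted p-value under 0.05 in 7. The order of the lesions in Il6ra followed that of the macrophage sum in its extremes: WT replicate 2 was highest (4241 CPM of macrophage markers) and KO replicate 2 lowest (685 CPM). That association was not tested.

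The chains for LIF, oncostatin M and IL-11 differed by less than the spread between lesions. Lifr was 68.0, 75.5 and 46.7 CPM among WT lesions, against 76.2, 76.3 and 59.6 CPM among KO lesions (log2 fold change 0.16, SE 0.21, adjusted p = 0.731 from edgeR). Its neighbour on chromosome 15, Osmr, was 89.2, 118 and 85.1 CPM among WT lesions, against 106, 85.4 and 96.8 CPM among KO lesions (log2 fold change -0.02, SE 0.17, adjusted p = 0.961). Il11ra1 was 38.1, 55.5 and 36.3 CPM among WT lesions, against 32.7, 30.5 and 49.8 CPM among KO lesions (log2 fold change -0.20, SE 0.26, adjusted p = 0.721). All 3 genes overlapped between the groups, and the sign of each turned in at least 1 of 13 alternatives. Il11ra1 is uncertain for a further reason, since Il11ra2 is a near-identical copy (4 to 11 counts per lesion) and other genes overlap its annotated span. The same lesion, WT replicate 2, was highest for Il11ra1 and Osmr.

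Proportions between members were compared within each lesion. On the scale of CPM per kb of exon, Il6ra per Il6st was 0.0961, 0.187 and 0.113 in WT and 0.0377, 0.0387 and 0.0832 in KO lesions. The ratio of Lif to Il6st was 0.118, 0.188 and 0.180 in WT and 0.0498, 0.0302 and 0.0751 in KO lesions, means of 0.162 ± 0.0383 (SD, n = 3) and 0.0517 ± 0.0225 (SD, n = 3). Lif per Lifr was 1.31, 1.41 and 2.54 in WT and 0.751, 0.404 and 1.06 in KO lesions. WT and KO lesions did not overlap in these 3 ratios, which for the pair over Il6st follows from the separate levels given above and adds no test to them. Osm per Osmr was 0.245, 3.74 and 0.0976 in WT and 0.0406, 0.0223 and 0.214 in KO lesions, and there the groups overlapped. A ratio shows unequal change of its members and not which of them changed.

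**Figure D3:**
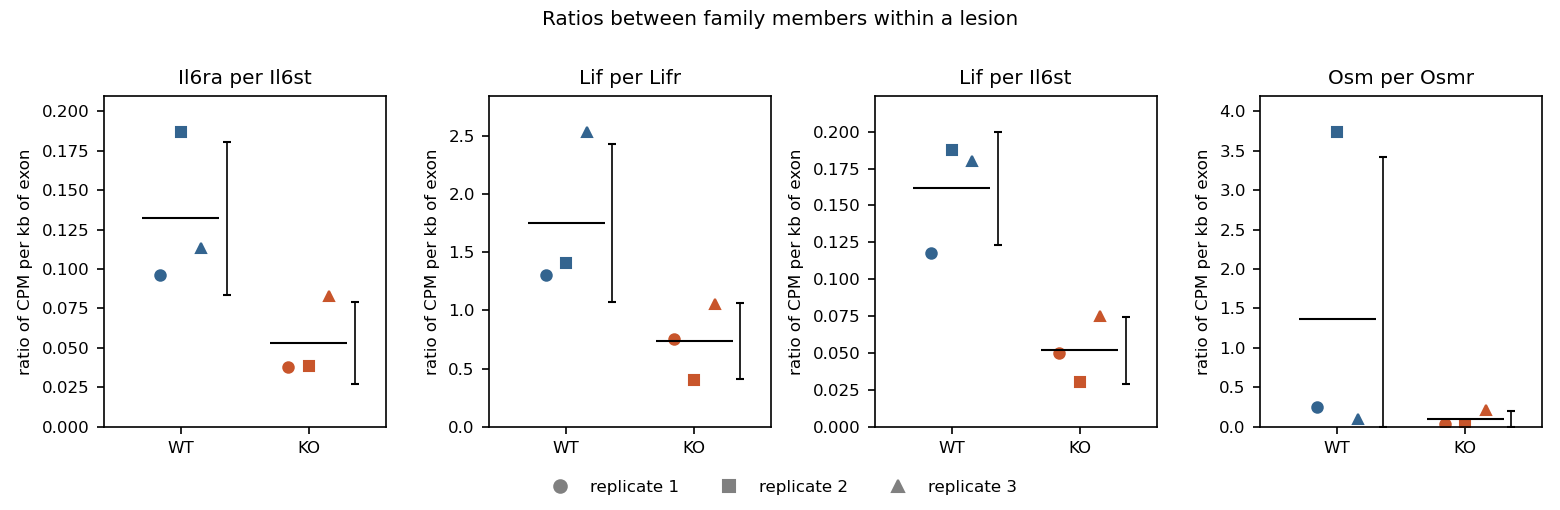
Ratios of CPM per kb of exon between members within each lesion (linear axes from 0, no unit). Symbols mark the replicate number, lines the mean and bars the SD of 3 lesions (drawn down to 0 where larger than the mean), and the WT lesions lie above the KO lesions in all panels except Osm per Osmr, where they overlap.

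Stat3 (ENSMUSG00000004040.17), the transcription factor on which these receptors converge, was 264, 330 and 231 CPM among WT lesions, against 279, 250 and 222 CPM among KO lesions. The groups overlapped, with a log2 fold change of -0.13 (SE 0.19, adjusted p = 0.737 from edgeR) that was 0.02 without WT replicate 2. Transcript levels do not report STAT3 phosphorylation, which was not measured here. By level per length over all 6 lesions, Il6st (52.6 to 107 CPM per kb) and Stat3 (23.3 to 34.6) stood above the other members, with the exception of Osm in WT replicate 2 at 36.4 CPM per kb. Il11ra1, Osmr, Lif, Il6ra and Lifr formed a middle group whose ranges overlapped, from 2.86 for the lowest Lif value to 12.4 for the highest Il11ra1 value. Il6 (0.0164 to 2.41), Il11 (0.154 to 0.521) and, outside WT replicate 2, Osm (0.157 to 1.80) were lowest, and their ranges overlapped.

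The remaining genes of the pathway were read from lists that cover the other ligands and receptors, JAK kinases and STATs, inhibitors, STAT3 response genes, acute-phase genes and implantation genes that act with LIF. Of 68 genes listed, 59 were tested, and an unadjusted p-value under 0.05 was found for 14 that were lower and 4 that were higher (8.16% and 6.55% of all genes). At the threshold of the study 10 were lower and 1 higher (5.85% and 3.1% of all genes). The adjusted p-values from edgeR ran from 0.321 to 0.986, so 0 passed, whereas DESeq2 gave one under 0.05 to 7 lower and 2 higher genes. Among the 18177 genes, DESeq2 gave one under 0.05 to 709 lower and 391 higher genes. Without WT replicate 2, 0 of these genes were lower at the threshold of the study (5.86% of all genes), and 8 were lower and 2 higher at an unadjusted p-value under 0.05 (9.64% and 4.21% of all genes). The count of 10 was also 16 without WT replicate 1 and 2 without KO replicate 1 or KO replicate 2. Over all genes, the count was 1064 with all lesions. It was 1130 without WT replicate 1, 551 without KO replicate 1 and 658 without KO replicate 2. Of the 59, 37 had their highest value in WT replicate 2 (24.2% of all genes), and their median log2 fold change of -0.42 was -0.13 without it. Of the pathway genes described below, Stat2, Socs2, Fos and Egr1 kept an unadjusted p-value under 0.05 with any single lesion left out, while Ebi3, Stat5a, Socs3, Icam1, Junb, Hif1a, Saa1, Saa2, Saa3, Cp and Bmp2 each lost it without at least 1 of the lesions. The 9 untested genes were Ctf2, Il31 and Fgb at 0 counts in every lesion, and Cntf, Il27, Il11ra2, Fga, Fgg and Hpx at 46 counts or fewer in any lesion.

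In the list of other ligands, 4 genes were tested. Ebi3, a subunit shared by IL-27 and IL-35, was 2.95, 23.3 and 2.14 CPM among WT lesions, against 1.51, 1.11 and 2.21 CPM among KO lesions, a log2 fold change of -2.55 with all lesions and of -0.66 without WT replicate 2. Of the 3 other receptor chains tested, 0 had an unadjusted p-value under 0.05 in edgeR's test. Il27ra had a log2 fold change of -1.28 (unadjusted p = 0.104), which was -0.62 without WT replicate 2 (unadjusted p = 0.363) and -2.09 without KO replicate 3 (unadjusted p = 0.0176), and Il31ra, which pairs with Osmr, of 0.86 (unadjusted p = 0.0947).

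Of 10 JAK and STAT genes, none of the 4 JAK kinases had an unadjusted p-value under 0.05 in edgeR's test. Stat2, an interferon-activated factor, was 60.5, 114 and 58.8 CPM among WT lesions, against 38.2, 35.0 and 42.7 CPM among KO lesions (log2 fold change -1.01, SE 0.29, adjusted p = 0.321). The groups did not overlap, with each WT lesion above each KO lesion. Stat5a was 95.0, 60.3 and 69.5 CPM among WT lesions, against 172, 161 and 78.3 CPM among KO lesions, so KO replicate 3 lay inside the WT range (log2 fold change 0.87, SE 0.34, adjusted p = 0.333). The annotated ends of Stat3 and Stat5a overlap on opposite strands, and the strand setting of the counting is not given in the sources used here.

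Of 10 inhibitors, 1 was lower and 1 higher at an unadjusted p-value under 0.05 (8.16% and 6.55% of all genes). Socs3, the feedback inhibitor of gp130 and a direct STAT3 target, was 75.0, 383 and 48.4 CPM among WT lesions, against 27.3, 20.9 and 44.5 CPM among KO lesions, each WT lesion above each KO lesion. Its log2 fold change of -2.45 (SE 0.85, unadjusted p = 0.0281, adjusted p = 0.328 from edgeR) was -0.997 without WT replicate 2 (unadjusted p = 0.0435). Socs2, which restrains growth hormone signalling through STAT5, was higher in each KO lesion, at 48.0, 37.5 and 45.4 CPM among WT lesions, against 71.9, 83.4 and 71.7 CPM among KO lesions. Its log2 fold change of 0.80 (SE 0.14, unadjusted p = 0.00139, adjusted p = 0.321 from edgeR) had an unadjusted p-value under 0.05 in each of 13 alternatives. The other 8 had an unadjusted p-value above that.

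**Figure D4:**
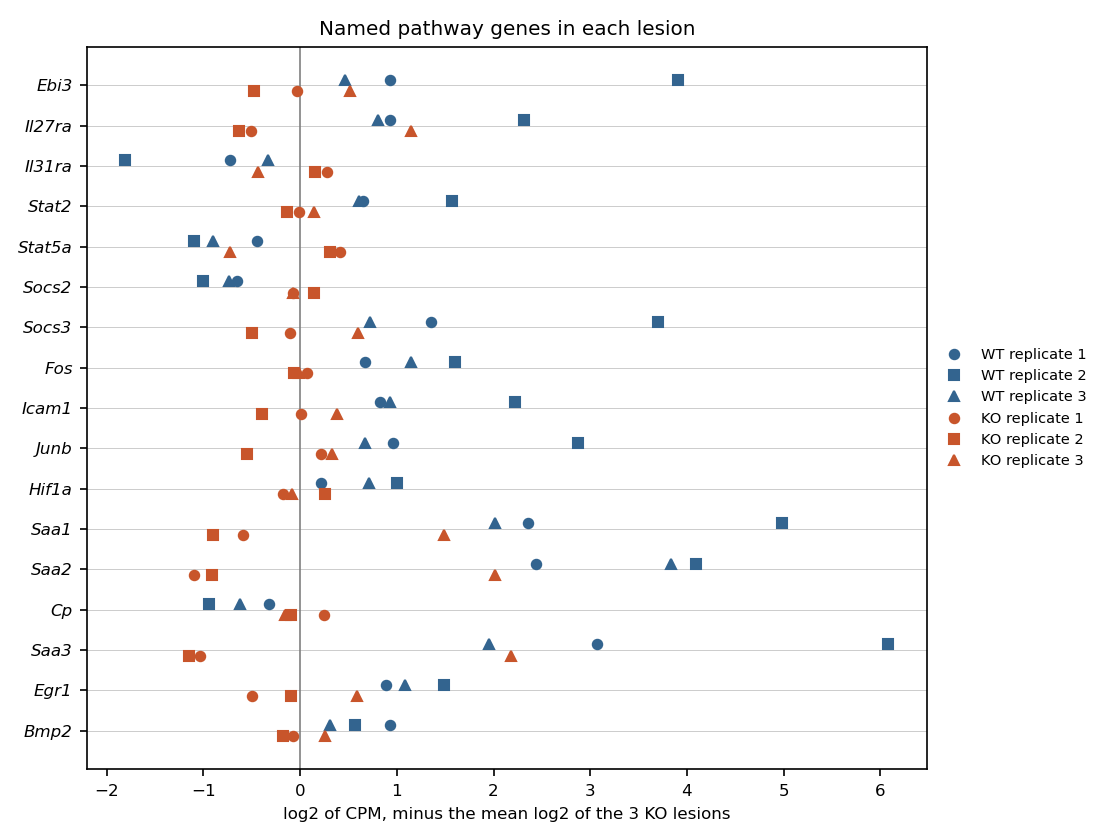
Named pathway genes in each lesion, as log2 of CPM minus the mean log2 of the 3 KO lesions (horizontal axis, log2 units). Colours mark the genotype and symbols the replicate number. WT replicate 2 is the highest lesion for Ebi3, Socs3, Junb, Icam1, Saa1 and Saa3, while Socs2 is higher in every KO lesion.

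Of 16 STAT3 response genes, 5 were lower and 0 higher at an unadjusted p-value under 0.05 (8.16% and 6.55% of all genes), 15 had a log2 fold change below 0 (48.6% of all genes), and 14 had their highest value in WT replicate 2 (24.2% of all genes). The median log2 fold change was -1.04, and -0.41 without that lesion, when 4 were lower at the same p-value (9.64% of all genes). Fos, an immediate-early AP-1 subunit, had the smallest p-value of them, at 47.8, 91.5 and 66.7 CPM among WT lesions, against 31.6, 28.8 and 29.8 CPM among KO lesions (log2 fold change -1.19, SE 0.25, unadjusted p = 0.00284, adjusted p = 0.321 from edgeR). Icam1, an adhesion molecule for leukocytes, was 64.9, 170 and 69.5 CPM among WT lesions, against 36.6, 27.8 and 47.7 CPM among KO lesions. Junb was 61.9, 234 and 50.6 CPM among WT lesions, against 37.0, 21.7 and 40.1 CPM among KO lesions, a log2 fold change of -1.81 that was -0.77 without WT replicate 2. Hif1a, the oxygen-regulated factor, was 369, 635 and 520 CPM among WT lesions, against 281, 381 and 300.2 CPM among KO lesions, with overlap. The fifth gene, Cebpd, lies outside the naming rule and was added after its values were seen (log2 fold change -0.82, SE 0.31, adjusted p = 0.332).

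Of 8 acute-phase genes tested, 3 were lower and 1 higher at an unadjusted p-value under 0.05 (8.16% and 6.55% of all genes). Without WT replicate 2, 0 were lower and 0 higher (9.64% and 4.21% of all genes). The median log2 fold change of the list was then 0.07 instead of -0.41. Saa1, Saa2 and Saa3, the serum amyloid A genes, were lower at an unadjusted p-value under 0.05, and Cp, which encodes the ferroxidase ceruloplasmin, was higher. Saa3 was 574, 4651 and 265 CPM among WT lesions, against 33.5, 31.0 and 310 CPM among KO lesions, with KO replicate 3 above WT replicate 3 (log2 fold change -3.87, SE 1.53, adjusted p = 0.334 from edgeR). Without WT replicate 2 its log2 fold change was -1.75 (unadjusted p = 0.183). Saa1 was 1.90, 11.8 and 1.495 CPM among WT lesions, against 0.246, 0.199 and 1.04 CPM among KO lesions, and its log2 fold change was -3.35, or -1.78 without WT replicate 2 (unadjusted p = 0.0757). Saa2 was 0.811, 2.57 and 2.14 CPM among WT lesions, against 0.0702, 0.0795 and 0.604 CPM among KO lesions (unadjusted p = 0.0618 without WT replicate 2). Reads of Saa1 and Saa2, which are close in sequence, could be split between them by the counting. Cp was 805, 521 and 651 CPM among WT lesions, against 1190, 941 and 901 CPM among KO lesions, a log2 fold change of 0.62 (SE 0.23, adjusted p = 0.332), or 0.47 without WT replicate 2 (unadjusted p = 0.0700).

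Of 8 implantation genes, 2 were lower and 0 higher at an unadjusted p-value under 0.05 (8.16% and 6.55% of all genes). Without WT replicate 2, 1 was lower (9.64% of all genes). Egr1, an early response gene, was 30.2, 45.7 and 34.6 CPM among WT lesions, against 11.6, 15.3 and 24.6 CPM among KO lesions. The groups did not overlap, and its log2 fold change of -1.10 (SE 0.32, unadjusted p = 0.0141, adjusted p = 0.321 from edgeR) was -0.91 without WT replicate 2 (unadjusted p = 0.0407). Bmp2, a decidualization signal, was 11.1, 8.67 and 7.22 CPM among WT lesions, against 5.54, 5.16 and 6.96 CPM among KO lesions (log2 fold change -0.61, SE 0.24, adjusted p = 0.332), with an unadjusted p-value of 0.0693 without WT replicate 2 and 0.153 without WT replicate 1. Among the genes most like Lif over the 6 lesions were Gna15 and Ppp1r13l (Pearson r = 0.991 and 0.983), those most like Il11 were Cntn1, Mad2l2 and Sardh (0.978, 0.974 and 0.970), and those most like Stat3 were Phf12, Rufy3 and Sirt7 (0.990, 0.988 and 0.988). These are descriptions over 6 lesions without a test.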

How the data were processed

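RNA-seq of 3 WT and 3 KO ectopic lesions was analysed from the deposited table of raw counts per gene, which was equal to the 6 sample files. The authors trimmed and mapped the reads, counted them per gene and normalized them in their own analysis, but the deposited counts are not normalized. The paper names GRCm38, whereas the submitters' processing notes name GRCm39, Trimmomatic, featureCounts and DESeq2. The aligner and the annotation release are not given in the sources used here. Symbols for 51948 of 56884 identifiers and exon lengths came from GENCODE M21 (GRCm38), matched without the version, and promoter sequences from RefSeq.

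Genes were filtered by filterByExpr (18177 left), scaled by TMM and tested with edgeR 4.0.16 in R 4.3.3 (quasi-likelihood, genotype as the only term, Benjamini-Hochberg over all genes). The SE was taken from the fold change and the F statistic (log2 fold change over root F). Exact permutation tests used SciPy 1.17.1. Log2 CPM had a prior count of 2. The steps were tested on simulated data.

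The members, lists and tests were chosen with earlier results of these data known. All 10 members are named, and of each pathway list up to 4 genes with the smallest unadjusted p-value under 0.05, filled to 2 by level. Results of a few genes that this rule names are not reported here, though they count in the totals. Alternatives were 2 other scalings, 2 other filters, DESeq2 1.42.0 on the filtered genes, limma 3.58.1 voom with quality weights, a replicate block and each lesion left out. SDs and SEs cover the spread between lesions.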

Additional observations from a re-analysis of the deposited data

How the results depend on the processing

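Over 13 alternatives, 29 genes chosen by the naming rule gave 372 fold changes with a p-value, of which 290 kept their direction and their side of an unadjusted p-value of 0.05, 63 kept the direction but were no longer under it, 11 came under it and 8 turned in direction. Those that turned were Osmr with upper quartile scaling (0.0742), with limma voom (0.11), without WT replicate 2 (0.14) and without KO replicate 2 (0.0612; range -0.132 to 0.141), Stat3 with limma voom (0.0553) and without WT replicate 2 (0.0186; range with a lesion left out -0.269 to 0.0186), Lifr without WT replicate 3 (-0.0463; range -0.0463 to 0.303) and Il11ra1 without WT replicate 2 (0.0185; range -0.452 to 0.0185). Il6 was not tested where at least 10 counts were asked of every library, nor was Saa2, and DESeq2 gave no p-value for Il6, Osm or Ebi3.

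The 1 family member lower at the threshold of the study became 0 with upper quartile scaling, 2 with all genes of at least 1 count and 2 with limma voom, and ran from 0 (without KO replicate 2) to 3 (without WT replicate 1 or KO replicate 3) with a lesion left out. Of members higher, 1 was found with upper quartile scaling, and 0 in the main analysis and with any lesion left out. For the 10 pathway genes lower, the range with a lesion left out was 0 to 16, and for the 1 higher it was 1 to 2. Over all genes, 564 were higher and 1064 lower, with ranges of 280 to 1021 and 551 to 1650 when a lesion was left out. Upper quartile scaling gave 716 higher and 907 lower, with the median of all genes at 0.11 instead of 0.01. Limma voom gave 855 higher and the filter of 1 count 1652 lower. Genes with an adjusted p-value under 0.05 numbered 1, then 0 under either other scaling (the size factors of DESeq2, or the upper quartile), 12 with limma voom, 1100 with DESeq2's Wald test, and 0 to 398 with a lesion left out, the latter without WT replicate 2. Of those 398 genes, 396 were lower in KO lesions. The WT lesions left in that setting, replicates 1 and 3, were those with high skeletal muscle markers, whose part in this count was not tested.

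Replicate numbers are shared by WT and KO lesions. Deviations from the group mean correlated at 0.03, -0.15 and -0.20 for same-numbered lesions, and at -0.15 to 0.23 for differently numbered ones. Same-numbered lesions were thus not more alike, which cannot decide whether they were paired. With the replicate block, 372 genes were higher and 573 lower, 3 pathway genes were lower and 0 higher, and 0 genes had an adjusted p-value under 0.05. There were 3 lesions a group, fewer than 60 Il11 counts in any library and 2 to 26 Il6 counts outside WT replicate 2. Small differences in Il6 and Il11 could thus go undetected at this depth, and the power to find them was not calculated.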
